A study of Homo sapiens with 4 samples.

Results

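The genes described here are 36 genes of fatty acid and glycerolipid synthesis, taken from a list in pathway order that runs from acetyl-CoA supply to triacylglycerol and ends with a transcription factor and the carnitine palmitoyltransferases. Each was represented by its brightest probe set over the 4 arrays among probe sets annotated with exactly 1 gene symbol. Of the 36, 34 had such a probe set, against 18132 genes on the whole array, and 32 were bright enough to be tested, against 14123. Expression of ACSL3 and AGPAT3 is not analysed here, and both enter only the counts of promoter windows. ELOVL2 and ELOVL4 were measured but lay under the filter on dim probe sets.

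The cells were SCC-9, an established human squamous carcinoma line of tongue origin, and received either a miR-585-5p mimic (2 arrays) or the control small RNA miR-NC (2 arrays). The labels give a dose of 30 nM for the mimic, transfection 24 hours after seeding and collection 36 hours after transfection. Total RNA was hybridised to a human gene expression array. The comparison asks how an excess of miR-585-5p alters the transcripts of these cells. A mimic is a synthetic RNA that acts in place of the mature microRNA, so it stands for an excess and not for a native level, and the mimic itself was not measured here. Whether both arrays of a group stem from separate cultures is not stated in the labels, and p-values here therefore cover the spread among these samples alone, which may be technical.

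Fatty acid synthesis starts from cytosolic acetyl-CoA, which is carboxylated to malonyl-CoA and condensed by fatty acid synthase into palmitate. Elongases lengthen the chain, desaturases add double bonds, and acyl-CoA synthetases activate the product so that acyltransferases can place it on glycerol-3-phosphate, on the way to phospholipids and triacylglycerol. Many of these genes are targets of the membrane-bound SREBP transcription factors, and carcinoma cells often synthesise much of their own fatty acid. Malonyl-CoA also inhibits the carnitine palmitoyltransferase of the outer mitochondrial membrane, through which fatty acids enter the mitochondrion to be oxidised.

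The transfected microRNA is shown because its seed, bases 2 to 8 from the 5′ end (in capitals), is the stretch that pairs with target transcripts. RefSeq places this mature sequence on the minus strand at chr5:169263649-169263670 (GRCh38.p14).
hsa-miR-585-5p: cUAGCACAcagauacgcccaga

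The promoter windows of the members at both ends of the range of change are shown next, as the regions from which those transcripts start. These are the 2 members with the highest changes, GPAM and CPT1A, and the 2 lowest with a window, ACSS2 (which has 2 windows) and SCD5. Each window holds 300 bases around an annotated transcript start, from RefSeq on GRCh38.p14, written 5′ to 3′ on the strand of the gene. Capitals mark the CCAAT box on either strand, which reads ATTGG on the opposite one.
GPAM, chr10:112183716-112184015, minus strand: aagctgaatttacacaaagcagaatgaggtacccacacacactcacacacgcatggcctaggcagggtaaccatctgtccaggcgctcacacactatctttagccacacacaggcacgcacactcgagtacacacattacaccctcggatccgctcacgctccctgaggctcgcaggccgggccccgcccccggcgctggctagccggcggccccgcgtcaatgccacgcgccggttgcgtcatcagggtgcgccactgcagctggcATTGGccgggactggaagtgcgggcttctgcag
CPT1A, chr11:68844228-68844527, minus strand: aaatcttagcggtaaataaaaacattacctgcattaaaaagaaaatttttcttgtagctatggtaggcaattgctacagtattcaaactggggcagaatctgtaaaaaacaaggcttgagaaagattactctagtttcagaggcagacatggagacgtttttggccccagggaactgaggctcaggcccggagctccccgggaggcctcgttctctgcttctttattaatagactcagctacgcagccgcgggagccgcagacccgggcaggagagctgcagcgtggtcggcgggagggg
ACSS2, chr20:34874739-34875038, plus strand: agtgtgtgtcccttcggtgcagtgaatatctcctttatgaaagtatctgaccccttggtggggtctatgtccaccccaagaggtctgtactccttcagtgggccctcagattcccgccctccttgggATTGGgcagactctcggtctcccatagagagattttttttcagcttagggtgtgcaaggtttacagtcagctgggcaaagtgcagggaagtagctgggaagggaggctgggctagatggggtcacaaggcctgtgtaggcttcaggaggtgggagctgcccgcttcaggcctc
ACSS2, chr20:34876362-34876661, plus strand: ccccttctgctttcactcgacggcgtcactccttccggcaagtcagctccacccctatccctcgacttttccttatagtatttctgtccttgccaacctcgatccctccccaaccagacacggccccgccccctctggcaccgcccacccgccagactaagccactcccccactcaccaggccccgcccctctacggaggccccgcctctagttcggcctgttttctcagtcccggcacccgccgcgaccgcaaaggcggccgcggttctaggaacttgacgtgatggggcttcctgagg
SCD5, chr4:82798747-82799046, minus strand: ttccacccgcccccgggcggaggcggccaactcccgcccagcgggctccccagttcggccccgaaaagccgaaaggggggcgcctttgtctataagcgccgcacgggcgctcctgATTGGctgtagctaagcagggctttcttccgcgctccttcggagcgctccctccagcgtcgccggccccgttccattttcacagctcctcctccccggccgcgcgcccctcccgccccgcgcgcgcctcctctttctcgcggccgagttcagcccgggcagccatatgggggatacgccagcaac

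Windows were found for 31 of the 36 members, 50 windows in all. A gene is counted where any of its windows holds a match, and these 31 include the untested ACSL3, AGPAT3, ELOVL2 and ELOVL4. Read on both strands, the CCAAT box (CCAAT) occurred for 18 of the 31 members, against 42.1% of the tested genes with a window. It occurred for 39.7% of all genes with a window, and in 34.6% of all 35116 windows counted singly. It was present for 10 of the 14 members with a window that were called lower in mimic cells (limma adjusted p under 0.05, as were 26.9% of all tested genes) and for 2 of the 5 called higher (28.1% of all tested genes). A core of the SREBP element (TCACNCCA) occurred in windows of 2 members, ACSL1 and ME1, against 4.94% of the tested genes. The GC box (GGGCGG) was found for 26 members, against 72.8% of the tested genes, and the E-box (CACGTG) for 3 members, ELOVL4, ELOVL5 and LPIN2, against 11.9%. A match of 1 motif can share letters with a match of another, as where the SREBP core runs on into CCAAT, and a match describes the letters of the window only.

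Median intensities were close on the 4 arrays, 30.6 and 31.1 on the mimic arrays against 30.7 and 31.3 on the control arrays. Across all probe sets, whose values are not independent of each other, arrays correlated at 0.998 within the mimic group and 0.997 within the control group, and at 0.978 to 0.982 between groups. The 20 control probe sets with no human target reached at most 16.8, and this value is used as background. The hybridization spikes differed by -0.05 (log2) between the groups, and the poly(A) control spikes lay 0.34 higher in the mimic group on average. The poly(A) spike means were 6.21 and 6.17 on the mimic arrays, against 5.76 and 5.95 on the control arrays. The control arrays thus differed more from each other than the mimic arrays did. The part of this spike difference in the results was not tested. With the arrays scaled to the poly(A) spikes the median log2 change of all genes was -0.40, against -0.06 on the deposited scale, and the changes given below are on the deposited scale. Of 10 squamous epithelial markers 7 were measured and all 7 were far above background, such as the basal keratin KRT5 at 8637 and 8337 on the mimic arrays, against 7049 and 7337 on the control arrays. All 7 were called by limma, of which 4 were higher in mimic cells, including KRT14 (0.97), and 3 were lower, namely the adherens junction protein CDH1 (-1.26, 2.39-fold lower), SFN (-0.42) and DSG3 (-0.45). The part of these marker changes in the results was not tested. Of 15 markers of immune, endothelial, fibroblast, adipocyte and hepatocyte cells, 8 were below background on all 4 arrays, namely PTPRC, COL3A1, DCN, ADIPOQ, PLIN1, LEP, ALB and FGB. CD3E, CD68, PECAM1, VWF, COL1A1 and APOA1 exceeded background on at least 1 array, of which COL1A1 was called lower in mimic cells (-0.47). FABP4, a fatty acid binding protein that also serves as an adipocyte marker, was called higher and is described with the neighbouring lipid genes, while the 3 other adipocyte markers were at background level.

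More of the called members were lower than higher in mimic cells. Genes that supply acetyl-CoA and malonyl-CoA, fatty acid synthase, the desaturases and the elongases held 12 called members, all lower, whereas the genes of glycerolipid assembly moved in both directions. At a limma adjusted p under 0.05, 7 of the 32 tested members were higher in mimic cells and 16 were lower, while 9 did not pass. Of all 14123 genes, 55% were called, 28.1% higher and 26.9% lower. A count of 23 called among 32 is therefore to be read against a majority of genes called on the whole array. The median log2 change of the tested members was -0.286, against -0.0576 for all genes, a distance of -0.228. This distance was -0.145 when probe sets of a gene were averaged and -0.148 with no filter on dim genes. Scaling to the poly(A) spikes shifts all genes alike and leaves the distance as it is by construction. On that scale 2 members were called higher and 22 lower, against 11.1% and 55.3% of all genes. The limma adjusted p of ACSS2 was 1.6e-95 there, with 2 arrays per group. The scaling adds the same offset to every gene of an array, and calls on that scale do not cover an error in the spike levels. The members called lower there but not on the deposited scale were ME1 (-0.45), FADS2 (-0.40), ELOVL3 (-0.53), ACSL1 (-0.36), DGAT1 (-0.27) and MLXIPL (-0.61).

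By size, 2 members, GPAM and CPT1A, were at least 2-fold higher in mimic cells, against 4.76% of all genes, and 4 members, ACSS2, FASN, SCD5 and AGPAT1, were at least 2-fold lower, against 3.41%. The mimic and control arrays did not overlap for 27 of the 32 tested members, against 79.4% of all genes. As the median deviation of the tested members from their own mean over the arrays, the mimic arrays lay at -0.15 and -0.13 and the control arrays at 0.12 and 0.17 (log2). In bulk RNA, fewer cells that express a gene and less of its RNA per cell cannot be told apart.

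**Figure D1:**
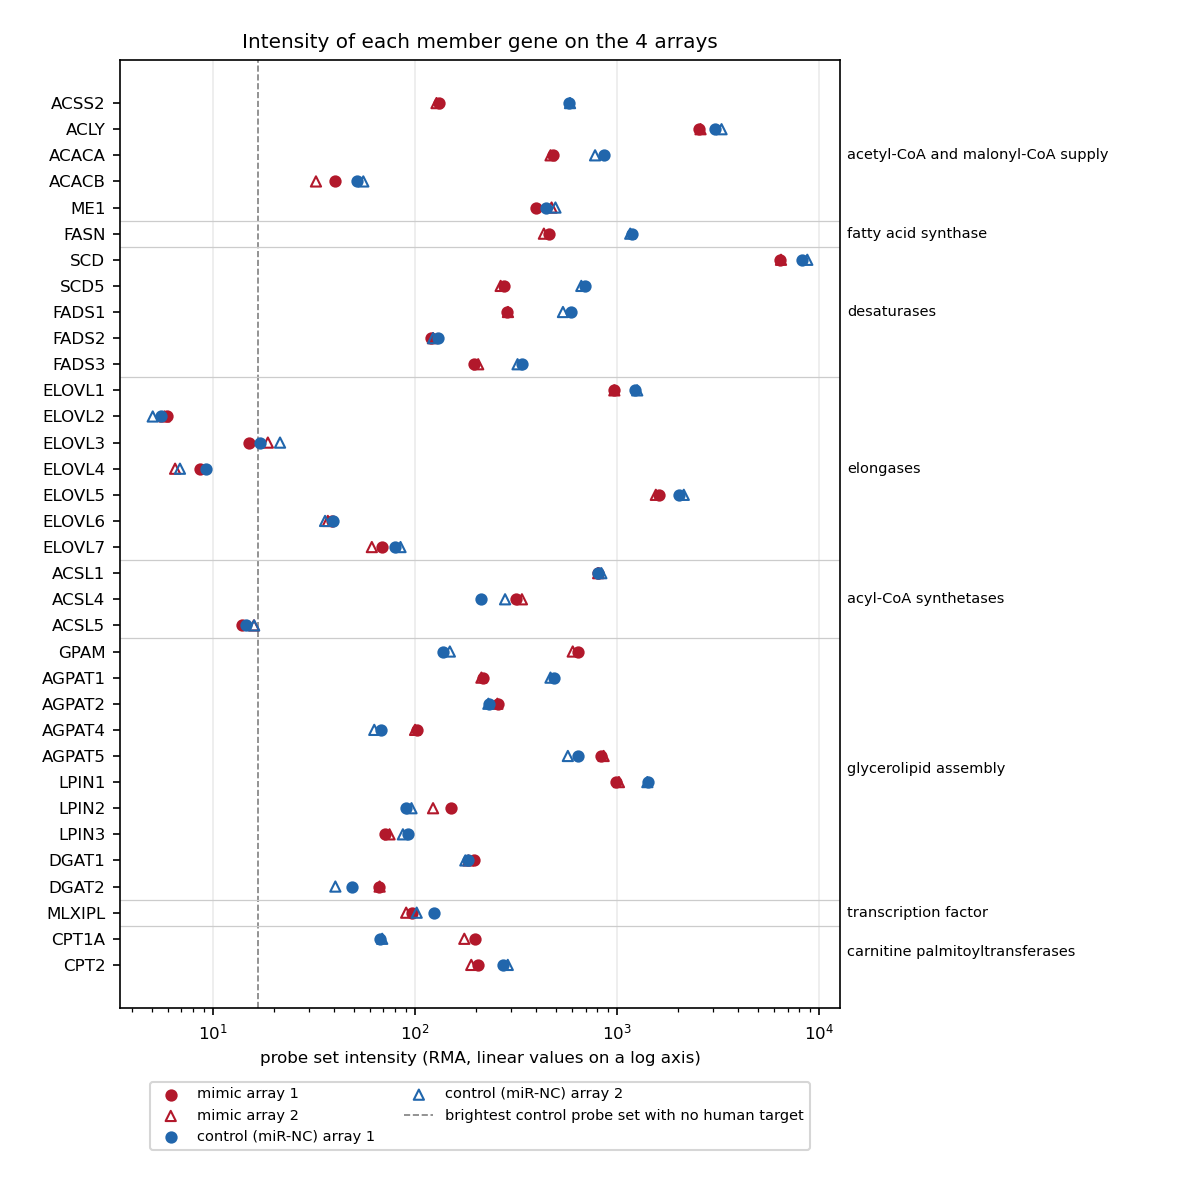
Probe set intensity (log axis) of each measured member on every array, with mimic arrays in red and control arrays in blue, circles for array 1 and triangles for array 2, and a dashed line at the brightest control probe set with no human target. GPAM and CPT1A show both mimic arrays far to the right of the control arrays, ACSS2, FASN, SCD5 and AGPAT1 show them far to the left, and ELOVL2 and ELOVL4 lie left of the dashed line.

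Of the 5 genes that supply precursors, 4 fell and ME1 did not pass. ACSS2, the cytosolic enzyme that makes acetyl-CoA from acetate, read 132 and 128 on the mimic arrays, against 582 and 587 on the control arrays (intensity). Within each group the arrays differed by a few units, and the groups were far apart. Its level was 4.5-fold lower in mimic cells, a log2 change of -2.17 ± 0.07 (SE, n = 2 per group, limma adjusted p = 4.16e-09), which was the lowest value of any tested member. ACSS2 stayed called under all 16 alternative settings tried. Its other probe set was below background on both mimic arrays and was at least 2.32-fold lower in mimic cells against the background value.

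ACLY, which makes acetyl-CoA from citrate and is the main source in most cells, had a smaller change. It read 2542 and 2597 on the mimic arrays, against 3079 and 3299 on the control arrays, a log2 change of -0.31 ± 0.05 (limma adjusted p = 0.000199). Both mimic arrays lay under both control arrays. ACACA, the cytosolic acetyl-CoA carboxylase that commits carbon to fatty acid synthesis, read 482 and 469.9 in mimic cells against 868 and 781 in control cells. The groups did not overlap, and the change of -0.79 ± 0.07 (limma adjusted p = 2.51e-06) was larger than the spread within either group, though the mean of its probe sets gave -0.51.

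ACACB, the mitochondrial carboxylase whose malonyl-CoA restrains fatty acid oxidation, was dim but above background. It read 40.1 and 32.4 on the mimic arrays, against 51.6 and 55.6 on the control arrays, and fell by 0.57 ± 0.13 on the log2 scale (limma adjusted p = 0.00366). The mimic arrays were the more scattered, and without mimic replicate 2 the call was lost (-0.42). With the mean of its probe sets the change was -0.30. ME1, the cytosolic malic enzyme that supplies NADPH, read 399 and 475 in mimic cells and 445 and 497 in control cells with its brightest probe set. The groups overlapped and the difference of -0.11 ± 0.09 did not pass (limma adjusted p = 0.317). A dimmer ME1 probe set, well above background, read 78.6 and 81.6 on the mimic arrays, against 235.6 and 238.5 on the control arrays, a log2 change of -1.56 that was called lower in a fit over probe sets. The mean of the ME1 probe sets was also called lower, at -0.84.

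FASN, the multifunctional synthase that builds palmitate, had a single probe set above background. It read 464 and 436 on the mimic arrays, against 1194 and 1165 on the control arrays. Means were 449.9 ± 20.3 in mimic cells and 1179.9 ± 20.5 in control cells (SD, n = 2 each), so the gap was many times the spread. The 2.62-fold lower level corresponded to a log2 change of -1.39 ± 0.06 (limma adjusted p = 2.36e-08), and the call held under all 16 alternatives.

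**Figure D2:**
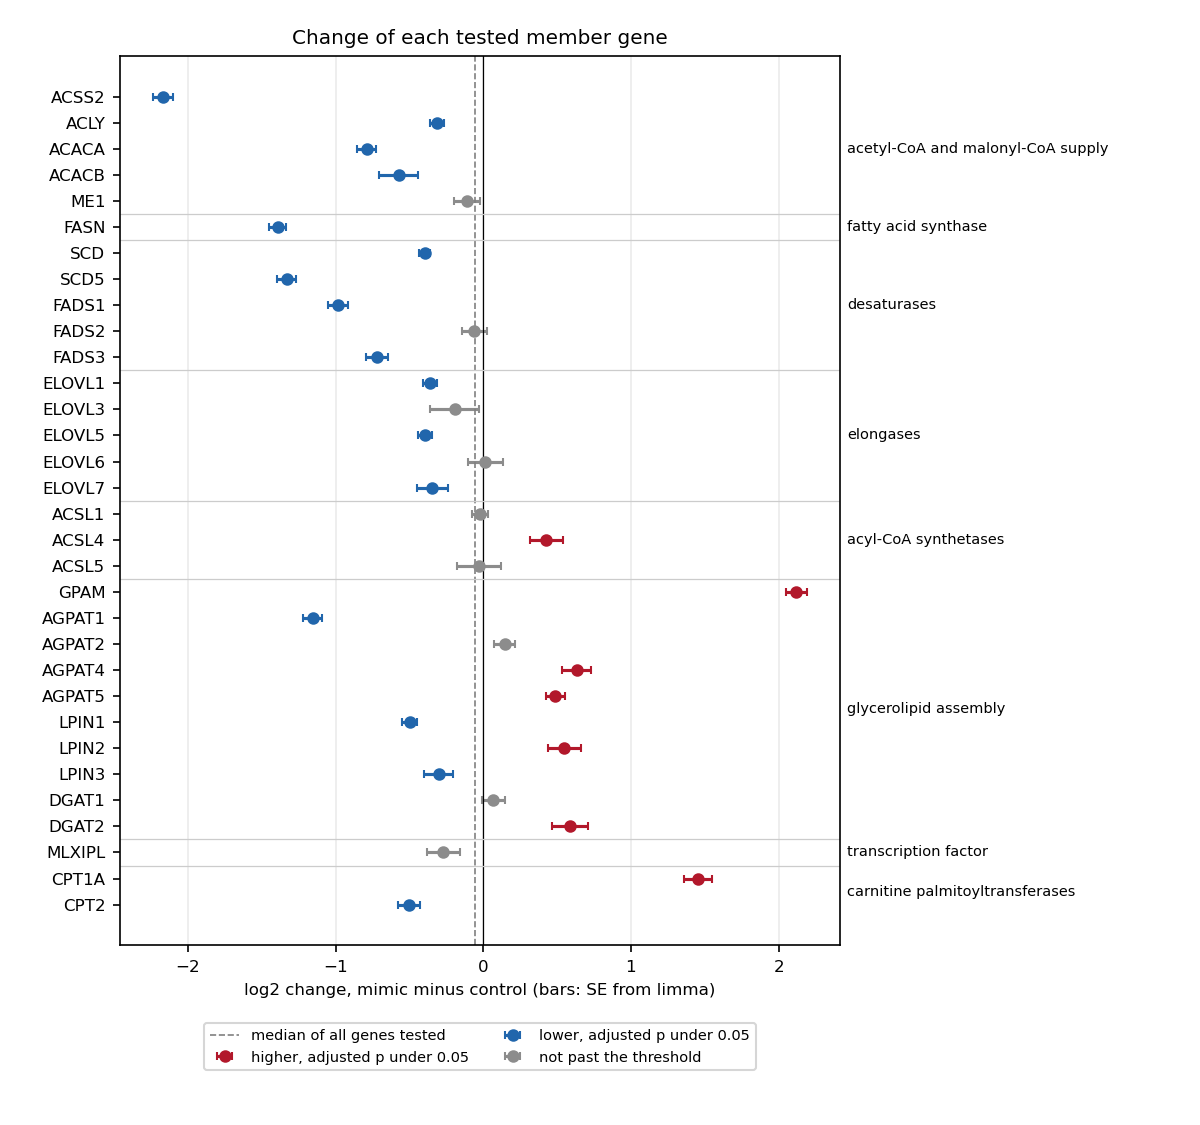
Log2 change (mimic minus control) of the 32 tested members in pathway order with SE bars from limma, red for higher, blue for lower and grey for not past the threshold, and a dashed line at the median of all genes (-0.0576). From ACSS2 to ELOVL7 every coloured point is blue, and red points appear from ACSL4 on. With the arrays scaled to the poly(A) spikes every point moves to the left by 0.34, and of the 7 red points only GPAM and CPT1A stay called higher.

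Of the 5 desaturases, 4 fell and FADS2 did not pass. SCD, the stearoyl-CoA desaturase that makes oleate and palmitoleate, read 6458 and 6499 on the mimic arrays, against 8293 and 8767 on the control arrays. The groups did not overlap, and the change was -0.40 ± 0.04 (limma adjusted p = 7.93e-06). Of its 3 other probe sets above background, 2 were called lower and the third, at 0.13, was not called. The mean over all its probe sets was -0.19.

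SCD5, the second human stearoyl-CoA desaturase, read 275 and 266 in mimic cells and 697 and 667 in control cells, a 2.52-fold lower level (-1.33 ± 0.06, limma adjusted p = 5.17e-08). That size belongs to 1 probe set. Of the 3 other SCD5 probe sets above background, 1 was called lower at -0.38 and the others were at -0.03 and -0.05, without a call. The brightest probe set carries a name suffix that marks probes shared between transcripts. With such probe sets left out SCD5 was at -0.03 and was not called, and with the mean of its probe sets it was at -0.35. Of the other called members, ACLY, SCD, ELOVL5 and ACSL4 could not be tested with shared-probe sets left out, so their calls rest on such probe sets.

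FADS1, a front-end desaturase that completes the synthesis of arachidonate and eicosapentaenoate, read 286 and 289 on the mimic arrays, against 596 and 541 on the control arrays. The mimic arrays differed by a few units and lay far under both control arrays. The change was -0.98 ± 0.07 (limma adjusted p = 7.47e-07), and its 2 other probe sets were at -1.02 and -0.77, so that all 3 fell. FADS2, which carries out the first desaturation of the same route, read 121 and 123 in mimic cells and 131 and 123 in control cells. Its values lay close together and the difference of -0.06 ± 0.09 did not pass (limma adjusted p = 0.582). FADS3, which desaturates sphingoid bases, read 196 and 206 in mimic cells and 339.8 and 323 in control cells, with no overlap and a change of -0.72 ± 0.07 (limma adjusted p = 1.06e-05).

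These 3 genes form a cluster on chromosome 11 (GRCh38.p14). FADS1 spans chr11:61799627-61817003 on the minus strand, and FADS2 spans chr11:61816203-61867354 on the plus strand. The 2 gene spans share 801 bases at their starts. FADS3 lies 6171 bases beyond FADS2, at chr11:61873526-61892224. FADS2 was called lower with the poly(A) spikes (-0.40).

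The elongases, which catalyse the condensing step of chain extension in the endoplasmic reticulum, had called changes that reached at most -0.40 on the log2 scale. Of 7 measured, 5 were tested, 3 fell and 2 did not pass. ELOVL1, which makes saturated and monounsaturated very long chains, read 970.0 and 972 on the mimic arrays, against 1234 and 1262 on the control arrays, a change of -0.36 ± 0.05 (limma adjusted p = 0.000104). ELOVL5, which extends polyunsaturated fatty acids, read 1616 and 1560.3 in mimic cells and 2036 and 2145 in control cells, a change of -0.40 ± 0.05 (limma adjusted p = 4.49e-05). For both genes the arrays of a group lay close together and the groups did not overlap.

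ELOVL7, an elongase of saturated very long chains, read 68.7 and 61.3 in mimic cells and 79.9 and 85.0 in control cells (-0.34 ± 0.11, limma adjusted p = 0.0179). Its call was lost without mimic replicate 2 (-0.26) and at a threshold of 0.01, while its other probe set above background fell more, by 0.78. ELOVL6, which extends palmitate, read 38.9 and 37.1 on the mimic arrays, against 39.4 and 36.0 on the control arrays, and the overlapping groups differed by 0.01 ± 0.12 (limma adjusted p = 0.933). ELOVL3, known from skin and brown fat, hovered at background with 15.1 and 18.7 on the mimic arrays, against 17.2 and 21.5 on the control arrays, and its change of -0.19 ± 0.17 did not pass (limma adjusted p = 0.35). ELOVL2 and ELOVL4, elongases of very long polyunsaturated chains, were below background on every array, ELOVL2 reaching at most 5.95 on the mimic arrays and 5.53 on the control arrays and ELOVL4 at most 8.67 on the mimic arrays and 9.27 on the control arrays.

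Of the acyl-CoA synthetases, which activate free long-chain fatty acids, 1 of 3 tested was called. ACSL4, which prefers arachidonate, read 319 and 339 on the mimic arrays, against 214 and 279.9 on the control arrays. Both mimic arrays were above both control arrays, but the control arrays differed widely. The rise of 0.43 ± 0.11 (limma adjusted p = 0.00727) lost its call without mimic replicate 1 (0.47), without mimic replicate 2 (0.38), without the variance trend and with the poly(A) spikes (0.09), and without control replicate 1 it was 0.23. With the mean of its probe sets it was 0.28, and only the brightest of them was above background. ACSL1 did not pass, with 810.1 and 809 in mimic cells and 805 and 838 in control cells (-0.02 ± 0.05, limma adjusted p = 0.754), though it was called lower with the poly(A) spikes (-0.36). ACSL5 was not above background, with 14 and 15.98 on the mimic arrays, against 14.5 and 16.02 on the control arrays (-0.03 ± 0.15, limma adjusted p = 0.881).

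Glycerolipid assembly held the largest rise of the set. Of its 10 tested members 5 rose, 3 fell and 2 did not pass on the deposited scale, and with the poly(A) spikes 1 rose, GPAM, and DGAT1 joined those that fell, while AGPAT4, AGPAT5, LPIN2 and DGAT2 lost their calls. GPAM, the mitochondrial glycerol-3-phosphate acyltransferase that starts the pathway, read 644 and 605 on the mimic arrays, against 138 and 149 on the control arrays. The groups were far apart, with means of 625 ± 27.7 in mimic cells and 144 ± 7.71 in control cells (SD, n = 2 each). Its level was 4.35-fold higher in mimic cells (2.12 ± 0.07, limma adjusted p = 7.39e-09). Of its 2 other probe sets above background on any array, 1 rose by 2.50 on the log2 scale. The other was below background on both control arrays, and was at least 1.24-fold higher in mimic cells against the background value. Its dimmest probe set was below background on every array and was not tested. The call of the brightest held under all 16 alternatives.

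At the next step, acylation of lysophosphatidate to phosphatidate, members of 1 family moved apart. AGPAT1, which with AGPAT2 carries most of this activity in many cells, read 216 and 214 on the mimic arrays, against 489 and 469.6 on the control arrays, a 2.23-fold lower level (-1.16 ± 0.07, limma adjusted p = 1.97e-07). Of its 3 other probe sets above background, 2 were called lower (-1.004 and -0.34) and 1 was not (-0.32), and the mean of its probe sets was -0.71. AGPAT2, the isoform needed for fat storage in adipose tissue, read 257 and 256 in mimic cells and 233 and 231 in control cells. The groups did not overlap, yet the difference of 0.14 ± 0.07 did not pass (limma adjusted p = 0.105), and with the poly(A) spikes it was -0.19.

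AGPAT4 read 103 and 100.3 on the mimic arrays, against 67.9 and 63.0 on the control arrays, a rise of 0.63 ± 0.10 (limma adjusted p = 0.000247), with no overlap. Its other probe sets above background on any array were at 0.319, 0.316, 0.49, 0.73 and 0.72, all called higher except that at 0.316. The mean of the AGPAT4 probe sets was 0.35, and it includes dimmer ones below background on every array (-0.26 and -0.11). AGPAT5, a mitochondrial member of the family, read 838 and 861 in mimic cells and 641 and 572 in control cells, a rise of 0.49 ± 0.07 (limma adjusted p = 8.77e-05). Its other probe sets above background gave 1.27, 0.76 and -0.15, the last without a call, and 1.27 was also its value with the shared-probe sets left out. With the poly(A) spikes AGPAT4 was at 0.29 and AGPAT5 at 0.15, neither called.

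The lipins dephosphorylate phosphatidate to diacylglycerol and also act as transcriptional coregulators. LPIN1 fell, with 989 and 1025 on the mimic arrays, against 1426 and 1417 on the control arrays (-0.50 ± 0.05, limma adjusted p = 9.65e-06). The arrays of a group agreed closely and the groups did not overlap. The other LPIN1 probe set above background was called lower at -0.35. The mean of the LPIN1 probe sets was -0.19, and it includes a probe set below background on every array (0.28). LPIN2 rose, with 151 and 123 in mimic cells and 90.4 and 96.3 in control cells (0.55 ± 0.11, limma adjusted p = 0.00153), and was at 0.21 without a call with the poly(A) spikes. LPIN3 read 71.3 and 75.0 in mimic cells and 92.8 and 87.3 in control cells, a change of -0.30 ± 0.10 (limma adjusted p = 0.0239). That call was lost at a threshold of 0.01, without mimic replicate 1 (-0.26), without mimic replicate 2 (-0.34) and without control replicate 1 (-0.26).

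For the last step, acylation of diacylglycerol to triacylglycerol, DGAT1 read 195 and 184 on the mimic arrays, against 184 and 178 on the control arrays, a difference of 0.07 ± 0.08 that did not pass (limma adjusted p = 0.482). With the poly(A) spikes it was -0.27 and called lower by limma (adjusted p = 0.0496). DGAT2, the isoform tied to newly made fatty acids, read 66.3 and 67.0 in mimic cells and 48.6 and 40.4 in control cells. The mimic arrays were nearly equal and above both control arrays, and the rise was 0.59 ± 0.12 (limma adjusted p = 0.00175). With the poly(A) spikes it was 0.25 and was not called.

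**Figure D3:**
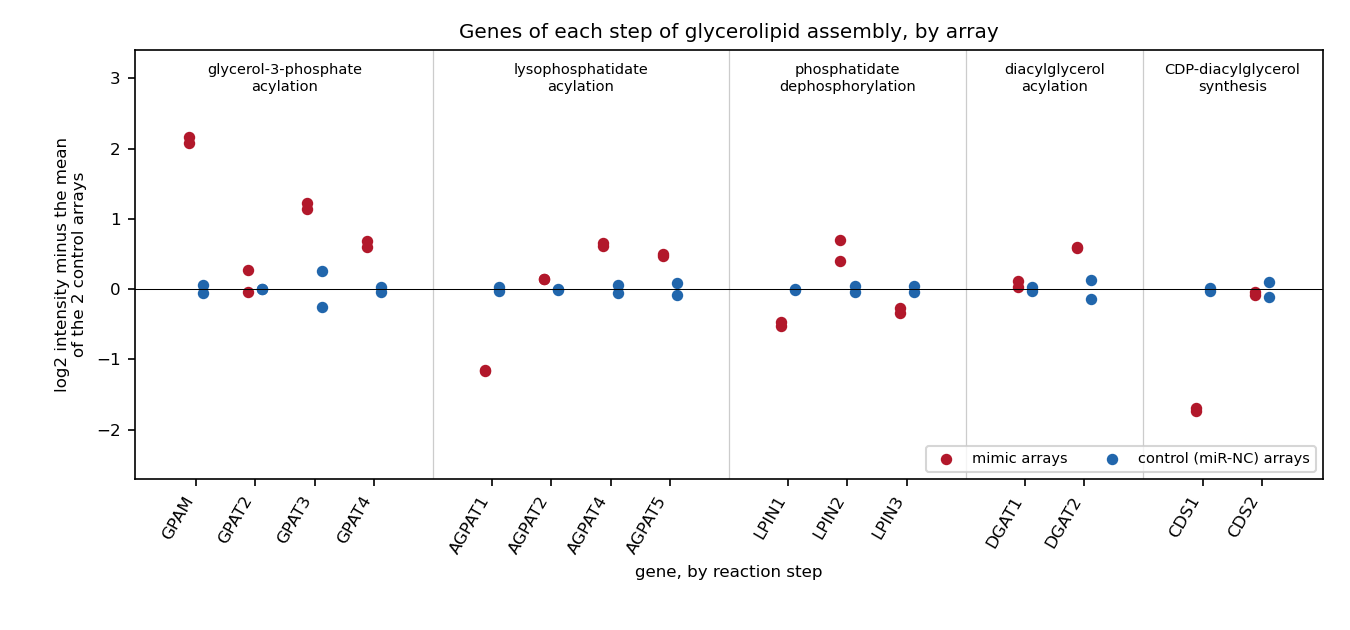
Log2 intensity of each gene of glycerolipid assembly on each array, minus the mean of the 2 control arrays of that gene, grouped by reaction step, with mimic arrays in red left of control arrays in blue. It includes GPAT2, GPAT3, GPAT4, CDS1 and CDS2, which catalyse the same or a branching step. The mimic points of GPAM lie above 2, those of AGPAT1 and CDS1 below -1, and the lipins lie on both sides of 0. With the arrays scaled to the poly(A) spikes the mean of the mimic points of each gene would sit 0.34 lower. Each array would then shift by its own spike level.

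GPAM has 3 relatives at the first step, all outside the member list. GPAT3, an enzyme of the endoplasmic reticulum, read 108 and 114 on the mimic arrays, against 40.9 and 58.5 on the control arrays, a rise of 1.19 ± 0.15 (limma adjusted p = 5.89e-05). GPAT4, chosen after its values were seen, read 246 and 259 in mimic cells and 165 and 158 in control cells (0.64 ± 0.08, limma adjusted p = 3.81e-05), but was at 0.12 without a call with the mean of its probe sets. GPAT2 did not pass (0.11 ± 0.15, limma adjusted p = 0.547) and changed sign with the poly(A) spikes (-0.23). CDS1, which diverts phosphatidate to CDP-diacylglycerol and so to phosphatidylinositol, read 251 and 257 on the mimic arrays, against 823 and 848 on the control arrays, a 3.28-fold lower level (-1.72 ± 0.06, limma adjusted p = 8.62e-09). Its relative CDS2 did not pass (-0.06 ± 0.08, limma adjusted p = 0.558), though it was called lower with the poly(A) spikes (-0.40). Both GPAT2 and CDS2 were chosen after their values were seen.

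The carnitine palmitoyltransferases, which carry fatty acids into mitochondria for oxidation, moved in opposite directions. CPT1A, the outer membrane enzyme that malonyl-CoA inhibits, read 198 and 176 on the mimic arrays, against 67.3 and 69.0 on the control arrays. It was 2.74-fold higher in mimic cells (1.46 ± 0.10, limma adjusted p = 4.54e-07), with all 4 arrays separated by group, and its dimmer probe set was at 0.83. CPT2, the inner membrane enzyme that reverses the transfer, read 206 and 190.3 in mimic cells and 273 and 289 in control cells, a change of -0.50 ± 0.08 (limma adjusted p = 0.000237). The transcription factor MLXIPL (ChREBP), which responds to glucose, read 96.8 and 90.6 in mimic cells and 125 and 102 in control cells, a difference of -0.27 ± 0.11 that did not pass (limma adjusted p = 0.0609). MLXIPL was called lower after quantile normalization a second time (-0.32), with the poly(A) spikes (-0.61), with the replicate number as a block and without control replicate 2 (-0.42), and was at -0.13 without control replicate 1.

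Probe sets of the same gene gave a further reading of the changes from the same 4 arrays. The 34 measured members had 94 probe sets, and 28 members had several. Beyond the brightest, 28 probe sets of called members were above background on all 4 arrays, of which 22 were called in the direction of the brightest and 6 were not called. These belonged to 15 of the 23 called members, each with at least 1 called the same way. The matching share for called genes of the whole array, where 55% of tested genes were called, was not computed. A dimmer probe set each of ACSS2, ACACB, GPAM and AGPAT4 is left out of these counts, as it was above background on some arrays only. These fits over all probe sets were added after the data had been seen.

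**Figure D4:**
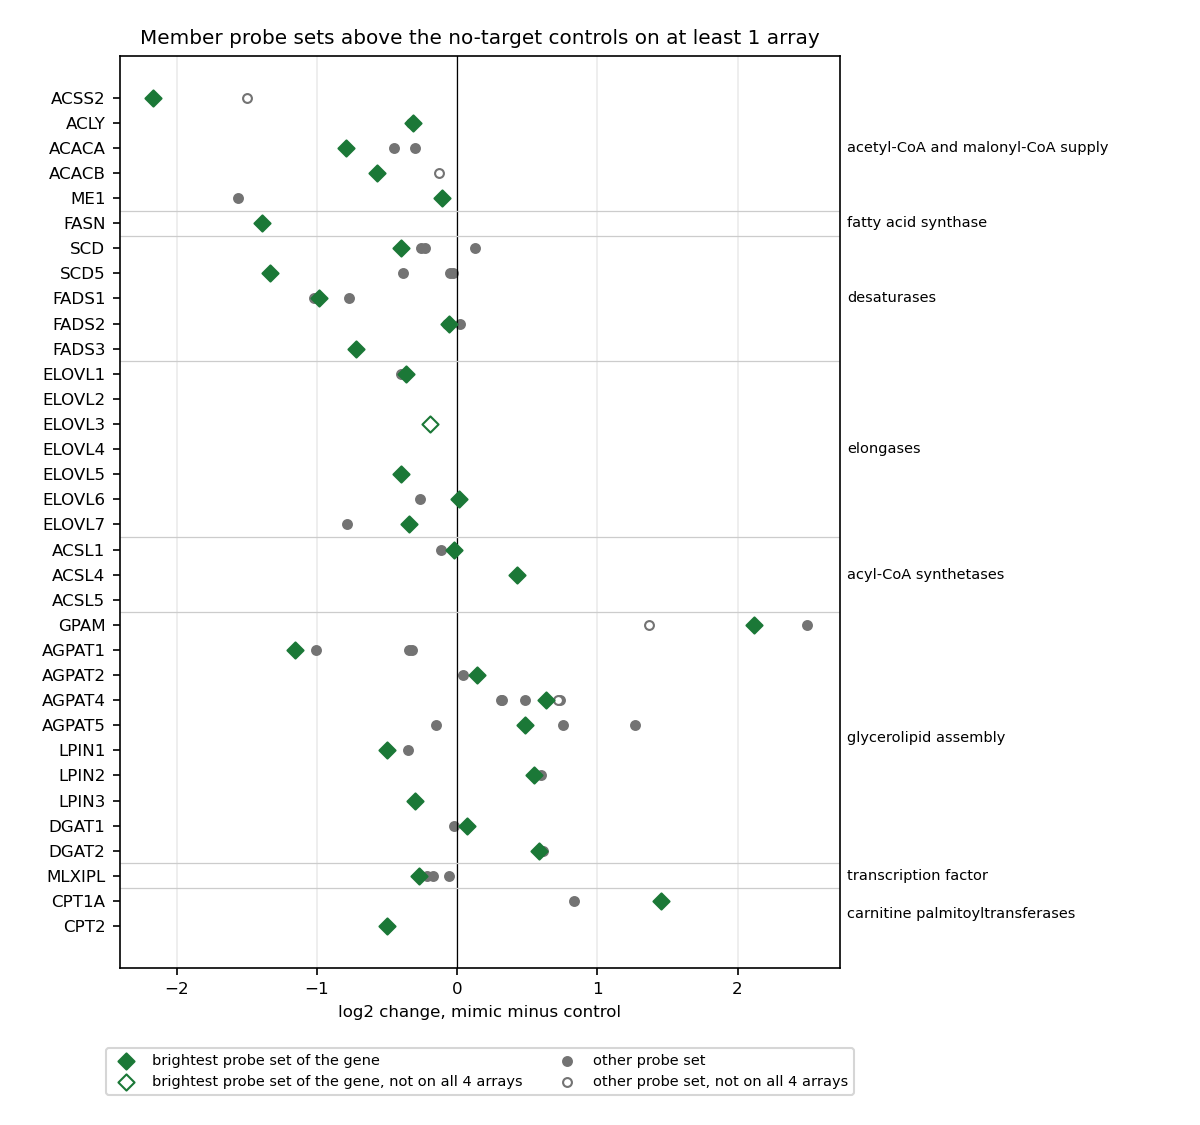
Log2 change (mimic minus control) of every member probe set above the no-target controls on at least 1 array, with green diamonds for the brightest probe set of a gene and grey circles for the others. Open symbols were at or under those controls on at least 1 other array, so their position is not a fully measured size. Probe sets of FADS1 and GPAM lie on 1 side of 0, those of SCD5 run from -1.33 to -0.03, and the 2 of ME1 lie at -0.11 and -1.56.

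Neighbouring lipid genes, 118 on lists that hold none of the members, were set beside the members. Of these, 108 were measured and 101 tested, 31 of them higher in mimic cells and 36 lower, with a median of -0.09. Over all genes tested 28.1% were higher and 26.9% lower, with a median of -0.0576. The counts of each list below are to be read against the same shares. In the list of SREBP and ChREBP control, 8 of 17 tested fell and 4 rose. SREBF2, the SREBP that mainly serves sterol synthesis, was at -1.29 ± 0.08, and USF2, a transcription factor that binds the fatty acid synthase promoter, was at -0.71 ± 0.07 (limma adjusted p = 6.74e-06). MBTPS2, the membrane protease that makes the second cut in SREBP activation, rose 2.72-fold, with 3464 and 3473 on the mimic arrays, against 1239 and 1309.8 on the control arrays (1.44 ± 0.05, limma adjusted p = 4.48e-09).

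INSIG2, which holds the SREBP complex in the endoplasmic reticulum, rose by 0.85 ± 0.07 (limma adjusted p = 3.62e-06). Its relative INSIG1, itself an SREBP target, read 380.1 and 409.8 in mimic cells and 574 and 574 in control cells (-0.54 ± 0.06, limma adjusted p = 3.44e-05). SREBF1, whose products drive fatty acid synthesis genes, read 320.1 and 302 in mimic cells and 416 and 423 in control cells (-0.43 ± 0.07, limma adjusted p = 0.000236). With the mean of its probe sets SREBF1 was at -0.67. INSIG1 and SREBF1 were chosen after their values were seen.

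Among genes of acetyl-CoA and NADPH supply 4 of 8 fell and 1 rose. The citrate carrier SLC25A1 was at -0.60 ± 0.06, the cytosolic isocitrate dehydrogenase IDH1 at -0.48 ± 0.08 and the mitochondrial malic enzyme ME3 at -0.45 ± 0.12, while the mitochondrial IDH2 rose by 0.43 ± 0.07. SLC25A1 lost its call with the shared-probe sets left out (-0.30), ME3 with the mean of its probe sets (-0.24) and without mimic replicate 2 (-0.37), and IDH2 with the poly(A) spikes (0.09). The list of partners of elongation and desaturation, with 10 tested, had 1 gene lower and 2 higher. It also holds MECR, OXSM and CBR4, genes of mitochondrial fatty acid synthesis, which were not called. CYB5R3, the reductase that passes electrons through cytochrome b5 to the desaturases, read 184 and 165 on the mimic arrays, against 929.6 and 929 on the control arrays, a 5.32-fold lower level (-2.41 ± 0.07, limma adjusted p = 3e-09), and -1.59 with the mean of its probe sets. HACD3, a dehydratase of the elongation cycle, was at 0.67 ± 0.05. CYB5A, the cytochrome itself, was at 0.32 ± 0.06 but lost its call with the shared-probe sets left out (0.16) and was at -0.02 with the poly(A) spikes.

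In the list of other acyl-CoA synthetases and of proteins that bind fatty acids or acyl-CoA, 7 of 11 rose and 3 fell, with a median of 0.38. This list also holds acyl-CoA thioesterases, of which ACOT7 rose (0.20), ACOT13 fell (-0.57) and ACOT9 was not called (-0.09). FABP4 read 119.7 and 79.6 on the mimic arrays, against 39.0 and 44.0 on the control arrays, with mimic replicate 1 well above mimic replicate 2 and both above the control arrays (1.24 ± 0.17, limma adjusted p = 9.93e-05). The fatty acid transport proteins SLC27A2 and SLC27A3 rose by 0.66 ± 0.11 and 0.59 ± 0.12, and SLC27A4 was at -0.73 ± 0.08. With the poly(A) spikes SLC27A2 (0.32) and SLC27A3 (0.25) were not called. Among 25 other enzymes of glycerolipids and phospholipids 11 rose and 9 fell. Besides GPAT3 and CDS1, GPD1L, a homologue of glycerol-3-phosphate dehydrogenase, rose by 0.91 ± 0.12, and the lysophospholipid acyltransferase MBOAT1 was at -0.90 ± 0.12 (limma adjusted p = 0.000112).

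For lipid droplets and lipolysis 2 of 15 rose and 5 fell. The monoacylglycerol lipase MGLL read 223 and 221 on the mimic arrays, against 713 and 735 on the control arrays, a 3.26-fold lower level (-1.70 ± 0.06, limma adjusted p = 1.03e-08). PNPLA3, a lipid droplet hydrolase, was at -0.84 ± 0.12, and HILPDA, an inhibitor of adipose triglyceride lipase, at 0.72 ± 0.07. The droplet coat protein PLIN2 read 26.3 and 29.0 in mimic cells and 18.9 and 11.0 in control cells, a difference of 0.94 ± 0.22 (limma adjusted p = 0.00379). Control replicate 2 was below background, so the size of the rise was not fully measured. Its call was lost without mimic replicate 1 (1.009) and without mimic replicate 2 (0.86), and without control replicate 2 it was 0.55.

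In the list of mitochondrial fatty acid oxidation, 4 of 15 rose and 6 fell. It holds neither CPT1A nor CPT2 but includes their relative CPT1C, which was not called (0.01). The medium-chain dehydrogenase ACADM was at 0.65 ± 0.07, the carnitine-acylcarnitine carrier SLC25A20 at 0.65 ± 0.12 and the hydroxyacyl-CoA dehydrogenase HADH at 0.39 ± 0.07, while ETFDH, which passes electrons to the respiratory chain, was at -0.56 ± 0.09. SLC25A20 (0.31) and HADH (0.05) were not called with the poly(A) spikes, HADH was at 0.61 with the mean of its probe sets, and ETFDH was at -0.37 with that mean and was not called with the shared-probe sets left out (-0.17). The rise of CPT1A thus stood beside genes of oxidation that moved both ways.

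**Figure D5:**
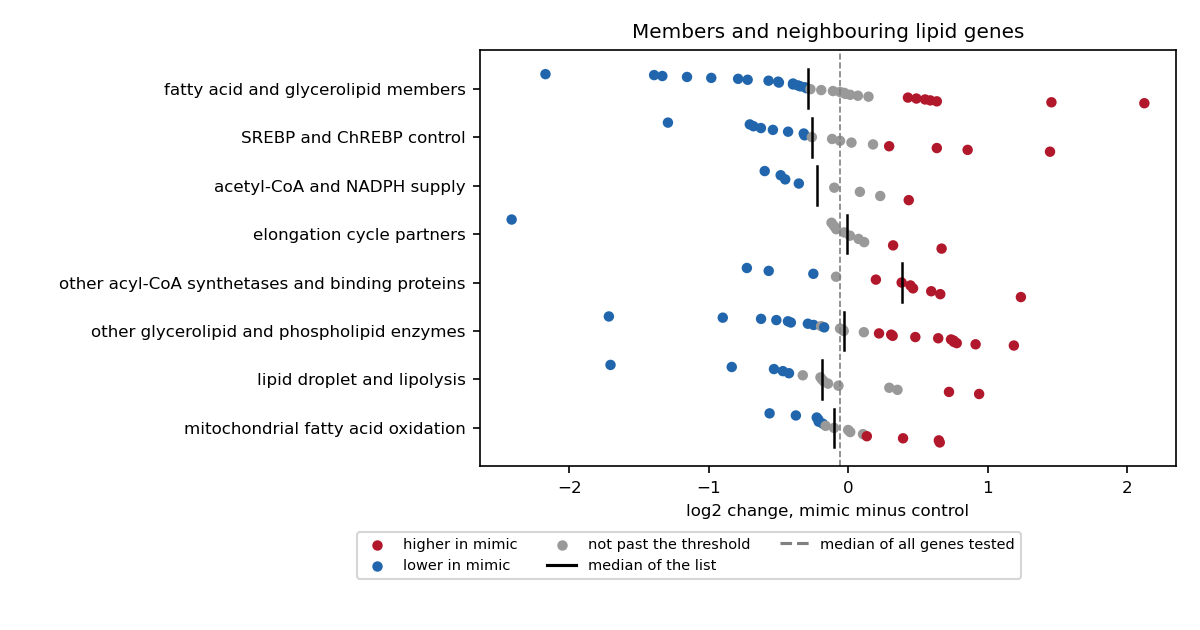
Log2 change (mimic minus control) of every tested gene of the member list and of each of the 7 neighbour lists, red for higher, blue for lower and grey for not past the threshold, with a black bar at the median of each list and a dashed line at the median of all genes (-0.0576). The member list has its bar at -0.286, left of the dashed line, and each list spans both directions. Scaling to the poly(A) spikes moves all points left by 0.34. After it 15 neighbours are called higher and 60 lower, against 11.1% and 55.3% of all genes.

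GAPDH, a glycolytic enzyme often used as a housekeeping gene, read 13205 and 13369.6 on the mimic arrays, against 11976 and 11972 on the control arrays. ACTB, cytoplasmic actin, read 2689.7 and 2887 in mimic cells and 1929 and 2511 in control cells. GAPDH was at 0.15 ± 0.03 and ACTB at 0.34 ± 0.10, both called higher by limma (adjusted p = 0.00194 and 0.0115), and neither was called with the poly(A) spikes, where GAPDH was at -0.19 and ACTB at 0.0014. Both lost the call without mimic replicate 2 (0.14 and 0.29) and without the variance trend. ACTB also lost it without mimic replicate 1 (0.39), and was at 0.15 without control replicate 1 and at 0.53 without control replicate 2. The mean of the ACTB probe sets gave 0.22.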

How the data were processed

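The deposited values are probe set intensities of 4 arrays of SCC-9 cells, made with RMA per the submitters' processing notes. Their range, up to 17329, shows a linear scale, so their log2 was taken. Other steps before deposit are not given in the sources used here. RMA brings arrays to 1 distribution, so a shift of the whole transcriptome cannot be seen. Of 49395 probe sets, 44988 have 1 gene symbol in the platform annotation, 1832 several and 2473 none. For each of 18132 genes the brightest probe set was kept, and 14123 genes whose mean passed the 30th percentile (intensity 12.0) were tested.

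The difference between mimic and control was tested by limma 3.58.1 under R 4.3.3 (lmFit, eBayes with a mean-variance trend; 2 residual and 8.35 prior degrees of freedom, median SE 0.095), two-sided, and p-values were adjusted over the 14123 genes by Benjamini-Hochberg, with calls made under 0.05. The script was tested on simulated data. The number of arrays limits the precision. Groups were taken from the sample titles, whose replicate numbers do not state a pairing.

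The members, lists, motifs and tests were chosen with earlier results of these data known. Named genes are every measured member, up to 4 called genes of each of 7 neighbour lists with the largest change, and GAPDH and ACTB, with others marked where they appear. Alternatives were further normalizations, the poly(A) spikes, looser and stricter filters, different probe set choices, changed variance estimates, the replicate number as a block, a threshold of 0.01 and leaving out each array. The mean of the probe sets of a gene includes those below background. Sequences are from RefSeq (GRCh38.p14).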

Additional observations from a re-analysis of the deposited data

How the results depend on the processing

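Of the 23 called members, 14 were called under all of the 16 alternatives in which they had a value. With the poly(A) spikes 2 members were higher and 22 lower, with a member median of -0.625, and over all genes 1573 were higher and 7816 lower and among neighbours 15 and 60. The member median was -0.329 after quantile normalization a second time, -0.233 with no filter on dim genes and -0.194 when probe sets of a gene were averaged, against -0.286. Leaving out each array in turn gave 6 to 7 members higher and 13 to 17 lower with medians of -0.307 to -0.280. Over all genes it gave 2897 to 4087 higher and 2509 to 4041 lower, and among neighbours 25 to 33 higher and 25 to 38 lower, the lowest count of 2509 without mimic replicate 2. Without probe sets of shared probes 25 members were tested, 6 higher and 12 lower, against 3379 higher and 3242 lower of 12586 genes. The called members ACLY, SCD, ELOVL5 and ACSL4 were not among those 25. With the replicate number as a block, 7 members were higher and 17 lower (MLXIPL passed, limma adjusted p = 0.0234), and 4132 of all genes were higher and 4120 lower. The numbers share no stated source. Differences between arrays 1 and 2 correlated at 0.085 between the groups, which cannot tell whether samples of the same number were paired. Changes of sign touched genes that were not called, other than CYB5A and GAPDH. With the poly(A) spikes ELOVL6 was at -0.33, AGPAT2 at -0.19, DGAT1 at -0.27, CYB5A at -0.018, GPAT2 at -0.23 and GAPDH at -0.19. Averaging a gene's probe sets put ELOVL6 at -0.087, GPAT2 at -0.12 and CDS2 at 0.089, and ELOVL6 was at -0.26 without probe sets of shared probes. ACSL5 was at 0.052 after quantile normalization a second time. Leaving out each array gave ranges across 0 for ME1 (-0.24 to 0.016), ELOVL6 (-0.053 to 0.079), ACSL1 (-0.051 to 0.0079), ACSL5 (-0.12 to 0.066), GPAT2 (-0.047 to 0.27) and CDS2 (-0.17 to 0.048). The poly(A) scaling lowers the log2 change of every gene by the same 0.34, and the cause of the other changes was not tested. For ELOVL2, ELOVL4 and ACSL5, at or under background, a difference was not detectable on these arrays.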
